A study of Mus musculus and Rattus norvegicus with 51 samples.

Results

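HSC-T6 cells, an established rat line that descends from hepatic stellate cells, were given [SO3] HMGB1 or BSA, and the RNA of 3 libraries of each was compared across all genes. These are 6 of the 51 libraries of the series, which deals with HMGB1 redox forms in liver fibrosis. The libraries were taken by their labels, and the comparison itself was picked with earlier results of these data known. All 17327 genes of the cell table were considered, of which 10140 passed a filter on low counts. The cells were wild type and were treated for 6 h with BSA, [H] HMGB1, [O] HMGB1 or [SO3] HMGB1, and BSA, an albumin, is the control protein. The labels do not spell out the bracketed forms and give no dose. HSC-T6 is 1 line without the hepatocytes and immune cells that surround stellate cells in a liver. The labels do not say whether the numbered samples are separate cultures. A p-value here therefore sets a group difference only against the scatter of these particular libraries within their groups, and that scatter may be technical. It was estimated over all 12 cell libraries together.

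HMGB1 sits on DNA in the nucleus and acts as a danger signal once it is outside the cell. It carries cysteines that can be reduced, joined by a disulfide or oxidised further to sulfonates, and its redox state is known to set which receptors it engages. Stellate cells store retinoids in healthy liver, and in injury they turn into contractile, matrix-producing myofibroblasts. Cells under oxidative or protein-damaging stress switch on separate sets of genes: NRF2 drives antioxidant enzymes, HSF1 drives chaperones, ATF4 drives amino acid and stress genes, and p53 halts division.

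The [SO3] libraries held 15.8 to 17.0 M gene counts and the BSA libraries 11.8 to 14.6 M. Levels are given as CPM, in which TMM factors bring the libraries to 1 common total, and gene length is not taken into account, so levels are compared between libraries and not between genes. In a principal component analysis of the 12 cell libraries the first component held 48.3% of the variance. On it BSA and [H] lay at -20.4 to -18.8, [SO3] at 11.8 to 13.5 and [O] at 27.3 to 27.9. The second component, with 37.8% of the variance, held the 3 [SO3] libraries at -30.4 to -29.4 and the other 9 libraries at 4.55 to 20.9. The stellate identity of the line was checked on 14 markers: 12 were tested, of which 9 fell and 1 rose, and their summed level was 74319 to 79008 CPM with BSA and 56000 to 59624 CPM with [SO3]. Lrat, the retinol-esterifying enzyme that marks retinoid-storing stellate cells, was at 0 in both groups. Of the other cell types, summed hepatocyte markers came to 0.408 to 0.710 CPM with BSA and 1.16 to 2.47 CPM with [SO3], and macrophage and leukocyte markers to 0.940 to 1.90 and 3.03 to 3.88 CPM. Hnf4a, Ttr, Ptprc and Adgre1 among them were at 0 in both groups. Summed endothelial markers stood at 15.3 to 18.0 and 10.1 to 11.6 CPM, cholangiocyte markers at 25.3 to 32.7 and 11.1 to 12.2 CPM and mesothelial markers at 60.8 to 70.3 and 53.8 to 55.9 CPM, and markers of neutrophils and of T, NK and B cells at or below 0.068 CPM. Their part in the results was not tested.

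Of the 10140 genes tested, 3155 (31.1%) rose with [SO3] HMGB1 and 3265 (32.2%) fell by the edgeR quasi-likelihood test at an adjusted p under 0.05. Most shifts were small. The median size among the called genes was 0.39 on the log2 scale, and 4714 of the 6420 called genes (73.4%) moved by less than 1.5-fold. At 2-fold or more, 324 genes (3.2%) rose and 241 (2.38%) fell, and of the 96 that moved at least 4-fold 81 rose. All 3 [SO3] libraries lay above all 3 BSA libraries for 32.1% of the tested genes and below them for 32.5%. The median over all genes was -0.02. The median of a list is that of its tested members, and a change given without a unit is a log2 fold change against BSA unless [O] or [H] is named. With 63.3% of the tested genes called, a list is described by its counts and its median beside these values, and no list was tested as a set. Beside [O] HMGB1, the [SO3] libraries were higher for 2953 genes (29.1%) and lower for 3047 (30%), 59.2% in all. Without composition scaling this split moved to 3997 higher and 2342 lower, that is from 49.2% to 63.1% of the called genes higher, and the median of all genes stood at 0.08. Beside [H] HMGB1, 3199 genes (31.5%) were higher and 3232 (31.9%) lower, 63.4% in all.

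**Figure D1:**
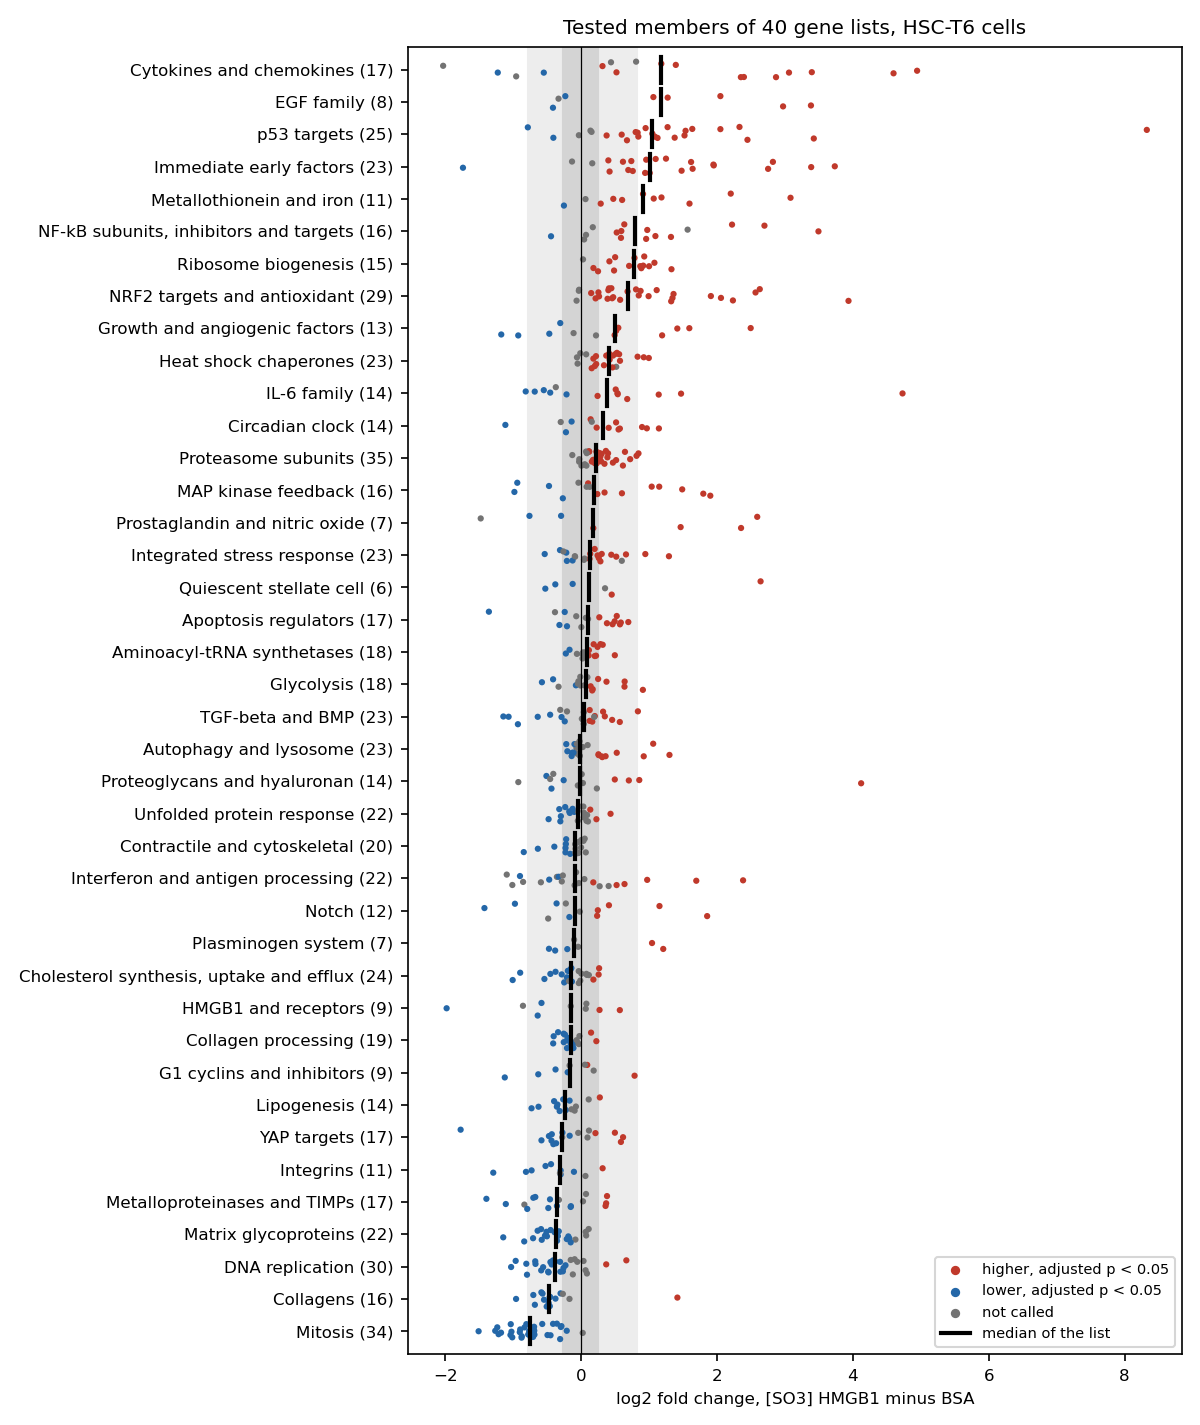
Log2 fold change of [SO3] HMGB1 against BSA (horizontal axis) for each tested member (points, coloured by the call) of 40 gene lists (rows), with the list's median as a bar, over bands for all tested genes from the 5th to the 95th percentile (light, -0.78 to 0.82) and from the 25th to the 75th (dark, -0.27 to 0.25). Medians of the p53, NRF2, immediate early and ribosome biogenesis lists lie right of the dark band, and those of the mitosis, collagen and matrix glycoprotein lists left of it.

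To show the sites by which these gene programmes are usually recognised, short stretches upstream of the start are printed for a few members. They are the RefSeq promoters of the mouse genes with the same symbols (build GRCm38.p6), set beside the rat cells, since rat sequence was not used here. Each runs 5′ to 3′ on the gene's own strand, and capitals mark a match on either strand.
The antioxidant response element core, TGACNNNGC, to which NRF2 and small MAF proteins bind, lay in the 300-base promoter window of 11 of 23 antioxidant genes that had a window. That is 47.8%, against 17.2% of all tested genes that had a window. A gene counts once if any of its windows holds a match, here and for the motifs below. The stretches are Txnrd1 chr10:82859094-82859142 on the plus strand, Prdx1 chr4:116685446-116685494 on the plus strand and Maff chr15:79346489-79346537 on the plus strand.
Txnrd1: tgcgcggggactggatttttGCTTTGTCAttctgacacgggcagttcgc
Prdx1: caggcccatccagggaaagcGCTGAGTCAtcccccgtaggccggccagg
Maff: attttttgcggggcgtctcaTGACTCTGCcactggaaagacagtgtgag
The heat shock element GAANNTTC, the site of HSF1, was matched in 10 of 18 chaperone genes with a window (55.6%, against 6.96% of tested genes). Shown are Hspd1 chr1:55088044-55088091 on the minus strand, Fkbp4 chr6:128438780-128438827 on the minus strand and Hspb1 chr5:135887782-135887849 on the plus strand.
Hspd1: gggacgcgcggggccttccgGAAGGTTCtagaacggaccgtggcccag
Fkbp4: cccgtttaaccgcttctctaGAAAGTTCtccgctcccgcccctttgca
Hspb1: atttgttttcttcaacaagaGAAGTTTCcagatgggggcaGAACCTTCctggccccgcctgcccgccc
A NF-kB site was matched in 6 of 11 cytokine and chemokine genes with a window (54.5%, against 6.36%). The 3 chemokine genes shown, which lie near each other on mouse chromosome 5, hold the same 11-base core. They are Cxcl1 chr5:90891154-90891204 on the plus strand, Cxcl2 chr5:90903782-90903832 on the plus strand and Cxcl3 chr5:90786008-90786058 on the plus strand.
Cxcl1: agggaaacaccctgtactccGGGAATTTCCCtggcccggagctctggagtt
Cxcl2: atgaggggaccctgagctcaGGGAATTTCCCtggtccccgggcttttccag
Cxcl3: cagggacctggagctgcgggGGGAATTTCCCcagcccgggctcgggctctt
The cell cycle homology region TTTGAA, where the DREAM and MuvB complexes bind, was matched in 19 of 27 mitosis genes with a window (70.4%, against 14.1%). The CCAAT box, the site of NF-Y, was matched in 20 of 27 (74.1%, against 42.9%). Both occur in Cdc20 chr4:118437344-118437416 on the minus strand and Mki67 chr7:135716452-135716587 on the minus strand.
Cdc20: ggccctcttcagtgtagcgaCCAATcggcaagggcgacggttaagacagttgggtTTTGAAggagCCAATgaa
Mki67: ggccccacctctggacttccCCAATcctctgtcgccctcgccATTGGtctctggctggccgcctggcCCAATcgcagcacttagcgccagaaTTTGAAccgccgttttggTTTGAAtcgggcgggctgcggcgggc
The CARE motif TGATGNAA, at which ATF4 acts with a partner, was matched in 5 of 20 integrated stress response genes with a window (25%, against 2.77%). The examples are Chac1 chr2:119351029-119351076 on the plus strand and Asns chr6:7693210-7693252 on the minus strand.
Chac1: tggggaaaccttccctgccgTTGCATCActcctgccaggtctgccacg
Asns: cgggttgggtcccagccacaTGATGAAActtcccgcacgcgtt
Among immediate early factors with a window a CArG box was matched in 3 of 18 (16.7%, against 1.47%). An AP-1 site (TGANTCA) or a CRE (TGACGTCA) was matched in 0 of 18, against 6.04% and 3.88% of all tested genes with a window. Matches describe letters in a window only, and binding was not measured.

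Antioxidant genes rose as a block. Of 29 NRF2 targets and antioxidant genes, all tested, 26 rose and 0 fell, with a median of 0.69. Their summed level was 5529, 5672 and 5758 CPM in the BSA libraries and 10470.0, 10167 and 10152 CPM in the [SO3] libraries, so the groups did not overlap. Txnrd1, the thioredoxin reductase whose promoter is shown above, measured 143, 142 and 147 CPM with BSA and 525, 537 and 561 CPM with [SO3] (log2 1.91, SE 0.038, adjusted p = 1.03e-22). Every [SO3] library lay above every BSA library, while the [O] libraries stood at 220.4, 216 and 215 CPM. Gclm and Gclc, the subunits of the enzyme that starts glutathione synthesis, rose by 1.35 and 1.11 on the log2 scale, and Gsr, which regenerates glutathione, by 1.36. Slc7a11, which imports the cystine that glutathione is made from, measured 63.9, 63.4 and 65.8 CPM with BSA and 297, 277 and 334 CPM with [SO3]. Osgin1, an oxidative stress-induced growth inhibitor, measured 23.1, 23.7 and 22.1 CPM with BSA and 139, 131 and 139 CPM with [SO3] (log2 2.57, SE 0.054, adjusted p = 1.96e-22). The groups lay well apart for both genes.

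The NADPH-forming enzymes Pgd and Me1 rose by 0.85 and 0.81. Prdx1, a peroxide-reducing peroxiredoxin with the element shown above, rose by 0.69 from 214 ± 19.0 CPM (SD, n = 3). Maff and Mafg, the small MAF partners of NRF2, rose by 2.06 and 1.00. Bach1, the repressor that competes with NRF2 for the same element, also rose (log2 1.33). Nfe2l2, the gene of NRF2 itself, measured 240.0, 233 and 246 CPM with BSA, 333, 324 and 323 CPM with [SO3] and 318, 312 and 330.4 CPM with [O]. It rose against BSA (log2 0.45, SE 0.037, adjusted p = 1.69e-10), but its level with [SO3] did not pass the test against [O] (log2 0.03, SE 0.036, adjusted p = 0.513), although it did without composition scaling (log2 0.11). The members not called were Cat, Sod1 and Gpx4, which encode catalase, cytosolic superoxide dismutase and the lipid peroxidase of ferroptosis defence, with log2 values of -0.03, -0.03 and -0.06.

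Most antioxidant genes were also higher than with the other forms, 24 of the 29 against [O] (0 lower, median 0.55) and 26 against [H] (0 lower). Hmox1, the haem-degrading enzyme, stood at 82.3, 81.8 and 83.5 CPM with [H], 93.3, 84.8 and 88.0 CPM with [O] and 1272, 1201 and 1205 CPM with [SO3] (log2 3.79, SE 0.043, adjusted p = 1.26e-27 against [O]). Akr1b8, an aldo-keto reductase outside the list, had the largest gain in CPM of any called gene, from 585, 595 and 613 CPM with BSA to 1952, 1900.1 and 1821 CPM with [SO3], and stood at 586, 537 and 612 CPM with [O]. For both genes the [O] libraries lay near the BSA libraries and the [SO3] libraries far above them.

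Genes of iron and metal handling rose as well. Of the metallothionein and iron list, 11 of 13 genes in the table were tested, 9 rose and 1 fell (median 0.91), and against [O] 8 were higher and 3 lower (median 0.37). Fth1, the ferritin heavy chain that stores iron, measured 846, 940.1 and 1033 CPM with BSA, 1066, 1093 and 1068 CPM with [O] and 1841, 1803 and 1662 CPM with [SO3] (log2 0.91, SE 0.053, adjusted p = 4.16e-11 against BSA). Mt1a, a metal-binding metallothionein, measured 17.1, 19.8 and 17.2 CPM with BSA, 24.2, 23.8 and 26.8 CPM with [O] and 88.9, 82.7 and 78.1 CPM with [SO3] (log2 2.20, SE 0.074, adjusted p = 4.74e-18 against BSA). In both genes the [SO3] libraries lay above all others. The iron exporter Slc40a1 was barely detected with BSA (6 against 67 counts summed over the 3 libraries of a group, ratio 8.87, 95% counting interval 3.87 to 25.03) and stood at 1.61, 1.26 and 1.10 CPM with [SO3] and 0.122, 0.191 and 0.193 CPM with [O]. Tfrc, the transferrin receptor that takes up iron, rose by 0.61, and Slc30a1, a zinc exporter that metal induces, by 1.18. The zinc and iron importer Slc39a14 measured 93.5, 99.4 and 87.0 CPM with BSA, 854, 791 and 793 CPM with [O] and 196, 197 and 196 CPM with [SO3], so it rose (log2 1.07) but stood far below its level with [O] (log2 -2.05, SE 0.044, adjusted p = 2.43e-22). Slc11a2, another iron importer, was not called against BSA (log2 0.07) and measured 62.3 ± 3.02 CPM with [SO3] against 153 ± 7.62 CPM with [O] (SD, n = 3 each). Storage, metallothionein and export genes were thus higher with [SO3] than with [O], and these 2 importers were lower. Aco1, an iron-sensing aconitase, was the 1 that fell (log2 -0.25).

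**Figure D2:**
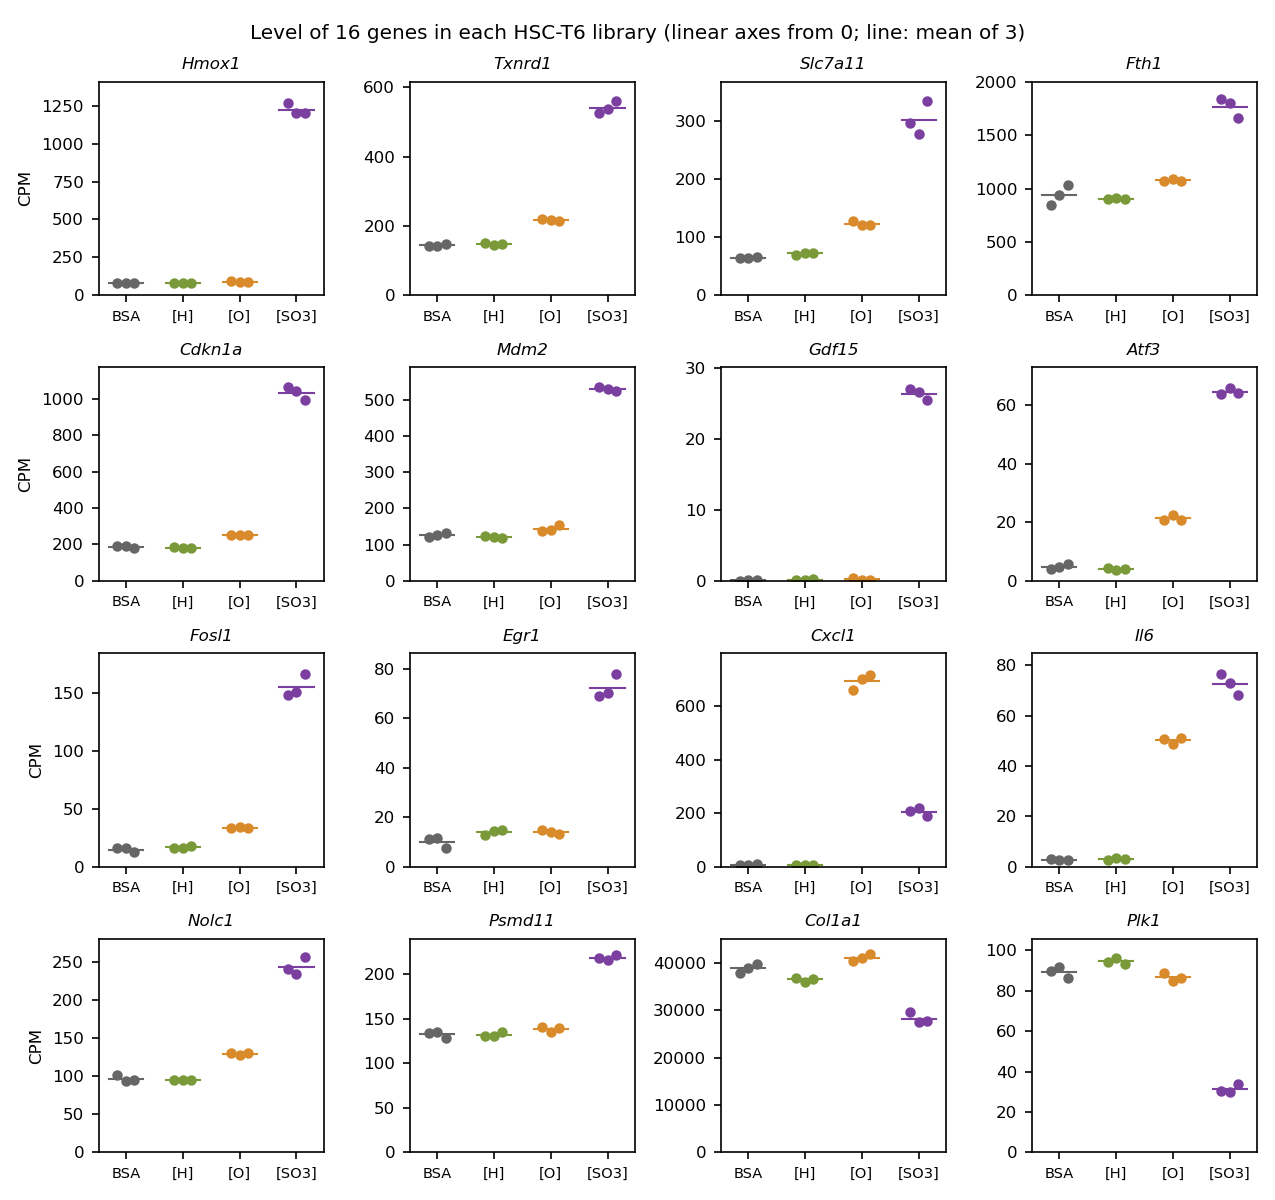
CPM (vertical axes, linear, from 0, a different scale per panel) of 16 genes in the 12 cell libraries, grouped as BSA, [H], [O] and [SO3] along the horizontal axis. Points are libraries and bars are group means, and Hmox1, Cdkn1a and Fosl1 are highest with [SO3], Cxcl1 is highest with [O], and Col1a1 and Plk1 are lowest with [SO3].

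Chaperones and the proteasome rose at the same time. Of 24 heat shock chaperones 23 were tested, 18 rose and 0 fell (median 0.42), and against [O] 18 were higher and 3 lower (median 0.33). Bag3 and Hspb8, partners that direct misfolded proteins to autophagy, both rose. Bag3 measured 219.8, 218 and 201 CPM with BSA and 383, 391 and 438 CPM with [SO3] (log2 0.92). Hspb8 measured 147, 149 and 147 CPM with BSA and 304, 293 and 289 CPM with [SO3] (log2 1.00), and neither gene overlapped between the groups. Hspd1 and Fkbp4, a mitochondrial chaperonin and a co-chaperone of HSP90 whose elements are shown above, rose by 0.42 and 0.37. Hspb1, whose window holds a pair of the same elements, was not called (log2 0.08, SE 0.08, adjusted p = 0.421). Nor were the small chaperone Cryab (log2 -0.06) and Hsp90ab1 (log2 -0.01), the constitutive HSP90, called. Hspa1b, the classical stress-inducible HSP70, measured 0.816, 0.852 and 0.598 CPM with BSA and 1.30, 1.20 and 0.813 CPM with [SO3] and was not called (log2 0.52). Reads of near-identical HSP70 copies may have been split between their genes, which was not tested.

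Of 35 proteasome subunits 25 rose and 0 fell, by a median of 0.23, and 30 were higher than with [O]. The shifts were modest and differed between subunits. Psmd11, a lid subunit that limits assembly of the 26S proteasome, measured 134, 135 and 128 CPM with BSA and 218, 216 and 221 CPM with [SO3] (log2 0.72, SE 0.04, adjusted p = 7.78e-14). Psmd5, an assembly chaperone, rose by 0.85 and Psma3, a ring subunit, by 0.82. The catalytic subunits Psmb5 and Psmb6 were not called (log2 -0.02 and -0.03). Vcp, the unfoldase that feeds the proteasome, was among the 10 genes with the largest gain in CPM, with 1651, 1711 and 1765 CPM with BSA and 2247, 2169 and 2132 CPM with [SO3] (log2 0.35).

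Of the autophagy and lysosome list, 9 of 23 tested genes rose and 6 fell (median -0.01). The risers included Sqstm1, the p62 receptor that carries ubiquitylated cargo, at 669, 699 and 714 CPM with BSA and 1359, 1293 and 1296 CPM with [SO3] (log2 0.92, SE 0.035, adjusted p = 5.10e-17), and Gabarapl1, an autophagosome protein (log2 1.30). The [O] libraries held 723, 708 and 694 CPM of Sqstm1, so it was higher with [SO3] than with [O] by 0.89 on the log2 scale.

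The integrated stress response split. Of 26 genes 23 were tested, 12 rose and 5 fell (median 0.14), and against [O] 5 were higher and 10 lower (median -0.05). Ppp1r15a, the phosphatase subunit that ends translational arrest, measured 79.9, 84.5 and 81.9 CPM with BSA and 206, 200.4 and 198 CPM with [SO3] (log2 1.29, SE 0.043, adjusted p = 3.70e-18). Atf4, the driver of the programme, rose by 0.26, Ddit3, its death-linked target CHOP, by 0.45, and Sesn2, an mTORC1 inhibitor, by 0.66. Chac1, with the CARE motif shown above, was not called (log2 -0.09). Asns, the asparagine synthetase with the same motif, fell (log2 -0.12), and so did Pck2, a mitochondrial PEP carboxykinase (log2 -0.53). Of 18 aminoacyl-tRNA synthetases 9 rose and 2 fell (median 0.10), and 5 were higher and 9 lower than with [O]. Of 22 unfolded protein response genes 3 rose and 10 fell (median -0.05). Hsp90b1, a chaperone of the endoplasmic reticulum, fell (log2 -0.30) from 1118, 1176 and 1259 CPM with BSA to 945, 979 and 954 CPM with [SO3].

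Genes listed as targets of p53 rose strongly, and the activity of p53 itself was not measured. Of 26 genes 25 were tested, 20 rose and 2 fell (median 1.05), and the summed level was 1560.5, 1629 and 1645 CPM with BSA and 4599, 4556 and 4467 CPM with [SO3]. Mdm2, the ubiquitin ligase that limits p53, measured 122, 128 and 134 CPM with BSA, 138, 139.7 and 155 CPM with [O] and 535, 529.8 and 523 CPM with [SO3] (log2 2.05, SE 0.046, adjusted p = 7.80e-22). Btg2, an antiproliferative gene, measured 18.4, 20.1 and 16.8 CPM with BSA, 59.5, 60.2 and 57.5 CPM with [O] and 200.2, 195 and 201 CPM with [SO3] (log2 3.43, SE 0.059, adjusted p = 7.58e-24). Both were highest with [SO3] in every library. Gdf15, a secreted stress hormone, went from near 0 to 27.0, 26.6 and 25.5 CPM (3 against 1342 counts summed over the 3 libraries of a group, ratio 355, 95% counting interval 121 to 1725), and stayed at 0.367, 0.0636 and 0.193 CPM with [O]. Cdkn1a, the cell cycle inhibitor p21, stood at 251, 253 and 252 CPM with [O] and 1062, 1040.0 and 993 CPM with [SO3] (log2 2.03, SE 0.038, adjusted p = 1.14e-23). Bbc3, the death-promoting PUMA, rose by 1.54. The pair that fell was Ddb2, a DNA damage sensor (log2 -0.78), and Sesn1, a stress sensor of the TOR pathway (log2 -0.41). Against [O], 21 of the 25 were higher and 1 lower (median 0.57). Plk2, a p53-induced kinase, rose against BSA by 2.33 and was slightly higher than with [O] (log2 0.13, SE 0.045, adjusted p = 0.0175), a call that was lost in some alternative settings. The death receptor gene Fas was lower than with [O] (log2 -1.43).

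Of 19 apoptosis regulators 17 were tested, 8 rose and 4 fell (median 0.10), and against [O] 3 were higher and 10 lower (median -0.27). Bmf, a death-promoting BH3-only gene, fell (log2 -1.36) from 32.7, 31.2 and 27.3 CPM with BSA to 12.4, 12.2 and 11.3 CPM with [SO3].

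Mitosis genes fell. In bulk RNA, fewer dividing cells and less of these RNAs per cell cannot be told apart. Of 36 genes 34 were tested, 33 fell and 0 rose (median -0.75), and the summed level went from 3089, 3077 and 3333 CPM with BSA to 1778, 1773 and 1827 CPM with [SO3]. The 1 member not called was Cdc25c, a phosphatase that triggers mitotic entry (log2 0.03). Mki67, the proliferation antigen whose promoter is shown above, measured 328, 314 and 341 CPM with BSA and 159, 149 and 176 CPM with [SO3] (log2 -1.02, SE 0.047, adjusted p = 2.14e-15). Cdc20, an activator of the anaphase-promoting complex, measured 112, 117 and 115 CPM with BSA and 51.5, 49.6 and 50.9 CPM with [SO3] (log2 -1.18, SE 0.045, adjusted p = 7.19e-17). The groups lay apart for both genes. Plk1, the mitotic kinase, stood at 94.3, 96.3 and 93.3 CPM with [H], 88.9, 84.5 and 86.1 CPM with [O] and 30.3, 29.9 and 33.9 CPM with [SO3] (log2 -1.46, SE 0.051, adjusted p = 5.98e-18 against [O]). Against [O], 28 of the 34 mitosis genes were lower and 1 higher (median -0.61). Of the 15 largest relative falls among called genes without overlap between the groups and with a mean of at least 5 CPM with BSA, Fam64a, a mitotic regulator, Mxd3, a MYC network factor of dividing cells, and Arhgef39 had log2 values of -2.27, -2.26 and -2.22.

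DNA replication genes fell too, by a smaller median. Of 30 tested 21 fell and 2 rose (median -0.39), and against [O] 7 were higher and 11 lower (median -0.03). Mcm2, of the replicative helicase, measured 117, 117 and 108 CPM with BSA and 61.6, 68.7 and 66.1 CPM with [SO3] (log2 -0.80, SE 0.05, adjusted p = 8.78e-13). Pcna, the sliding clamp and also a p53 target, and Orc1, of the origin recognition complex, rose (log2 0.37 and 0.67). Of 9 tested G1 cyclins and inhibitors 2 rose and 4 fell (median -0.17), and the inhibitors Cdkn2c and Cdkn1b were among those that fell (log2 -1.12 and -0.63).

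Ribosome biogenesis genes went the other way from the division genes. Of 15 tested 14 rose and 0 fell (median 0.79), and all 15 were higher than with [O] (median 0.57). Nolc1, a nucleolar scaffold for ribosomal RNA processing, measured 102, 93.3 and 94.7 CPM with BSA, 130.3, 127 and 131 CPM with [O] and 239.9, 234 and 256 CPM with [SO3] (log2 1.33, SE 0.045, adjusted p = 4.74e-18 against BSA). Gnl3, nucleostemin, rose by 1.08. Npm1, the abundant nucleolar phosphoprotein, was not called against BSA (log2 0.03, SE 0.05, adjusted p = 0.619).

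The list of immediate early factors holds mostly transcription factors, which growth and stress signals can switch on without new protein synthesis. At 6 h 20 of its 23 tested genes rose and 1 fell (median 1.01). Whether these changes needed new protein was not tested. Against [O] 19 were higher and 3 lower (median 0.65). Jun, a component of the AP-1 factor, measured 67.2, 65.9 and 67.8 CPM with BSA, 67.1, 62.6 and 59.6 CPM with [O] and 254, 263 and 261 CPM with [SO3] (log2 1.95, SE 0.051, adjusted p = 2.50e-20). Ier3, an early response gene, measured 42.0, 42.3 and 40.6 CPM with BSA, 119.7, 125 and 124 CPM with [O] and 283, 286 and 274 CPM with [SO3] (log2 2.75, SE 0.05, adjusted p = 1.43e-23). Both were highest with [SO3] in all 3 libraries. Myc rose by 1.01. Klf2, a flow-responsive factor, fell (log2 -1.74), and Junb, another AP-1 partner, rose against BSA (log2 1.64) but was lower than with [O] (log2 -0.45). Srf, which binds the CArG box, was not called (log2 -0.13) and measured 52.99 ± 1.24 CPM with [SO3] against 142 ± 9.93 CPM with [O].

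Of 16 tested MAP kinase feedback genes 9 rose and 4 fell (median 0.19). The phosphatases Dusp8 and Dusp16, which act on JNK and p38, rose by 1.90 and 1.80. Spry1, a brake on receptor signalling to ERK, and Dusp14 fell (log2 -0.94 and -0.98). Of 8 tested EGF family genes 5 rose and 2 fell (median 1.17). The ligands Areg, Ereg, Hbegf, Tgfa and Nrg1 rose, by 3.38, 2.97, 1.07, 1.28 and 2.05, and Egfr, the receptor of most of them, fell (log2 -0.41). Areg measured 0.816, 0.426 and 0.513 CPM with BSA, 1.22, 1.02 and 1.03 CPM with [O] and 6.24, 6.73 and 5.81 CPM with [SO3], low in all groups but without overlap. Ereg was at 4.94, 4.96 and 4.24 CPM with [SO3] and 5.44, 4.20 and 4.44 CPM with [O]. These ranges overlap, and the test between them was not passed (SE 0.14, adjusted p = 0.988). Of 13 tested growth and angiogenic factors 7 rose and 4 fell (median 0.50). Pdgfc, a ligand of the PDGF receptors, measured 28.2, 28.5 and 25.3 CPM with BSA, 31.4, 31.5 and 30.4 CPM with [O] and 74.0, 70.3 and 75.6 CPM with [SO3] (log2 1.42, SE 0.056, adjusted p = 1.26e-16), and Vegfa, the angiogenic factor, rose by 0.52. Hgf, the stellate cell's growth signal to hepatocytes, fell (log2 -0.92) while standing at 22.8, 21.1 and 19.7 CPM with [O], above its 10.1, 12.2 and 12.6 CPM with BSA.

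Inflammatory genes rose with [SO3], but most stayed far below their level with [O]. Of 21 cytokine and chemokine genes with a row of counts, 17 passed the filter, 11 rose and 2 fell (median 1.18). Against [O] 1 was higher and 15 were lower (median -2.57). The summed level was 499, 507 and 554 CPM with BSA, 1304, 1328 and 1284 CPM with [SO3] and 4212, 4281 and 4299.9 CPM with [O]. Cxcl1, a neutrophil-attracting chemokine with the NF-kB core shown above, measured 5.85, 6.10 and 8.20 CPM with BSA, 207, 218 and 189.5 CPM with [SO3] and 661, 702 and 717 CPM with [O] (log2 -1.76, SE 0.052, adjusted p = 1.05e-18 against [O]). Cxcl3, with the same core, measured 1.97, 2.34 and 2.48 CPM with BSA, 25.6, 22.5 and 23.3 CPM with [SO3] and 313, 313 and 319.9 CPM with [O] (log2 -3.73 against [O]). Cxcl2, the third of the chemokines shown, had few reads with BSA (1 against 40 counts summed over the 3 libraries of a group, ratio 31.8, 95% counting interval 5.38 to 1286) and stood at 0.803, 1.14 and 0.407 CPM with [SO3] and 2.14, 3.05 and 3.47 CPM with [O]. The groups stood in the order BSA, [SO3], [O] for all 3 chemokines. Csf1, the macrophage growth factor, rose by 1.40.

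NF-kB subunits, inhibitors and targets gave 11 risers and 1 faller of 16 tested (median 0.80), and against [O] 1 higher and 15 lower (median -1.66). Nfkbiz, a nuclear inhibitor of the IkB family that helps induce Il6, measured 8.37, 10.6 and 11.7 CPM with BSA, 115, 118 and 109.6 CPM with [SO3] and 236, 243 and 237 CPM with [O]. Icam1, a leukocyte adhesion molecule, rose by 1.32 and was lower than with [O] (log2 -2.25). Sod2, the mitochondrial superoxide dismutase that NF-kB induces, was not called against BSA (log2 0.07) and measured 229 ± 6.31 CPM with [SO3] against 954 ± 10.1 CPM with [O].

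A few inflammatory genes did not stand below [O]. Il6 measured 2.99, 2.63 and 2.48 CPM with BSA, 50.8, 48.6 and 51.0 CPM with [O] and 76.4, 72.8 and 68.0 CPM with [SO3], and was higher with [SO3] than with [O] (log2 0.53, SE 0.053, adjusted p = 5.68e-09). Ptgs2, the inducible prostaglandin synthase, measured 26.3, 26.5 and 27.9 CPM with BSA, 178, 171 and 167 CPM with [O] and 164, 161 and 162 CPM with [SO3] and did not pass the test between the forms (log2 -0.08, SE 0.039, adjusted p = 0.0729). Irf1, an interferon-regulatory factor, rose by 1.70 and was higher than with [O] by 0.41. Il6 and Irf1 thus stood above their [O] level and Ptgs2 close to it.

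Of 14 tested IL-6 family genes 8 rose and 5 fell (median 0.38), and against [O] 2 were higher and 8 lower (median -0.34). Lif, a cytokine of that family, rose by 1.47. Of 7 tested prostaglandin and nitric oxide genes 4 rose and 2 fell (median 0.18), and Nos2, the inducible nitric oxide synthase, had few reads (3 against 21 counts summed over the 3 libraries of a group, ratio 5.56, 95% counting interval 1.66 to 29.1). Of 22 tested interferon and antigen processing genes 6 rose and 3 fell (median -0.08), and 14 were lower than with [O] (median -1.25). Within this list library 3 stood high in both groups: Rsad2, an antiviral interferon-stimulated gene, measured 2.86, 2.48 and 19.6 CPM with BSA and 2.66, 4.28 and 23.5 CPM with [SO3]. Both groups overlap there, and Rsad2 was not called (log2 0.41). Of 9 tested genes of HMGB1 and its receptors 2 rose and 3 fell (median -0.15). Ager, the receptor RAGE, rose from 5.65, 5.61 and 5.64 CPM with BSA to 9.58, 7.99 and 7.61 CPM with [SO3] (log2 0.57, SE 0.14, adjusted p = 7.50e-04), and Myd88, the adaptor of Toll-like receptors, by 0.27. Tlr4, the receptor that binds HMGB1 together with Ly96, was not called (log2 0.08), nor was Ly96 (log2 0.07), and the co-receptor Cd14 fell (log2 -0.64). The other fallers were Hmgb2, a paralogue of HMGB1 (log2 -0.58), and Thbd, thrombomodulin, which binds HMGB1, at 0.884, 0.426 and 0.598 CPM with BSA and 0.0618, 0.171 and 0.232 CPM with [SO3] (log2 -1.98, SE 0.52, adjusted p = 0.00204).

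**Figure D3:**
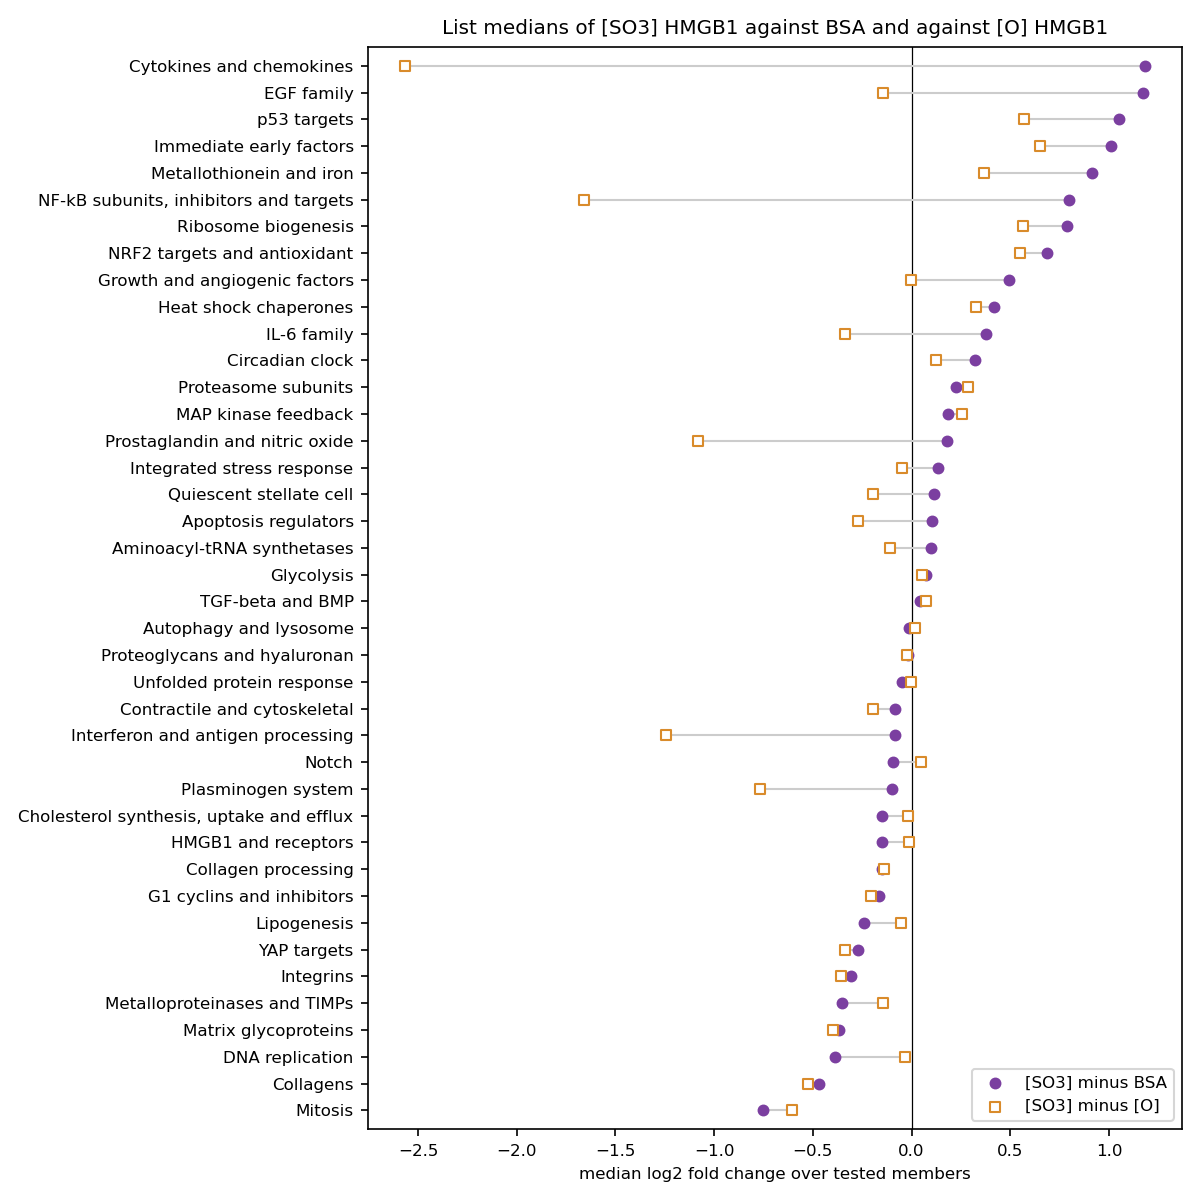
Median log2 fold change over the tested members (horizontal axis) of each of 40 gene lists (rows). Filled circles give [SO3] against BSA and open squares [SO3] against [O], joined by a line. Both use the same [SO3] libraries. NRF2, p53, immediate early and ribosome biogenesis lists are positive in both comparisons. Cytokine and NF-kB lists are positive against BSA and negative against [O], and mitosis and collagen lists are negative in both.

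Matrix genes fell. Of 16 collagen genes in the table, all tested, 13 fell and 1 rose (median -0.47), and against [O] 15 were lower and 1 higher (median -0.52). Their summed level was 79472, 80316 and 82404 CPM with BSA and 59836, 56588 and 57686 CPM with [SO3]. Col1a1, the most abundant collagen of scar, measured 37799.8, 39026 and 39884 CPM with BSA, 40439.7, 40948 and 41841 CPM with [O] and 29594, 27473 and 27709 CPM with [SO3] (log2 -0.46, SE 0.031, adjusted p = 4.53e-12). Col3a1, its partner in scar fibres, measured 21059, 21292 and 22464 CPM with BSA and 15880.3, 14886 and 14915 CPM with [SO3] (log2 -0.50, SE 0.033, adjusted p = 2.20e-12). Col5a1, Col5a2 and Col11a1, which nucleate those fibres, fell (log2 -0.54, -0.46 and -0.57). All 5 had every [SO3] library below every BSA library. The 1 that rose was Col7a1, the anchoring fibril collagen (log2 1.42), from 3.33, 3.27 and 2.91 CPM with BSA to 9.02, 7.70 and 8.89 CPM with [SO3]. Of 19 tested collagen processing genes 13 fell and 2 rose (median -0.15), among the fallers Pcolce, which speeds removal of the procollagen tail (log2 -0.26), and Lox, which cross-links fibres (log2 -0.21).

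Of 22 tested matrix glycoproteins 18 fell and 0 rose (median -0.37), and 18 were lower than with [O] (median -0.40). Thbs1, a thrombospondin that activates latent TGF-beta, measured 2995, 2998 and 2991 CPM with BSA, 3717, 3624 and 3753 CPM with [O] and 1668, 1646 and 1722 CPM with [SO3] (log2 -0.84, SE 0.032, adjusted p = 5.10e-17). It fell with [SO3] and stood above BSA with [O]. Sparc, a collagen-binding glycoprotein, fell (log2 -0.21). The list of proteoglycans and hyaluronan was mixed, with 4 of 14 tested genes higher and 3 lower (median -0.02). Its hyaluronan synthases Has1 and Has2 rose: Has1 measured 0.136, 0.142 and 0.256 CPM with BSA and 3.77, 2.68 and 3.02 CPM with [SO3] (log2 4.12, SE 0.38, adjusted p = 1.26e-09), and Has2 rose by 0.70. Has1 had few reads with BSA (7 against 160 counts summed over the libraries of a group, ratio 18.2, 95% counting interval 8.61 to 45.9).

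Of 17 tested metalloproteinases and TIMPs 10 fell and 3 rose (median -0.35). Adamts1, which cleaves versican, fell (log2 -0.79). Of 7 tested plasminogen system genes 2 rose and 3 fell (median -0.10). Plaur, the urokinase receptor, rose by 1.05. Of 23 tested TGF-beta and BMP genes 9 rose and 7 fell (median 0.04). Bmp2 rose by 0.84, and the ligand genes Tgfb3 and Inhba and the inhibitor Smad6 fell (log2 -0.64, -0.93 and -1.14). Grem1, a BMP antagonist, was among the 10 largest losses in CPM (5049.5, 5100.4 and 5237 with BSA, 4153, 4102 and 3956 with [SO3]).

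Of 17 tested YAP targets 9 fell and 4 rose (median -0.27), and 15 were lower than with [O] and 0 higher (median -0.34). Ctgf and Cyr61, matricellular proteins used as readouts of YAP, fell (log2 -0.58 and -0.47), and Ankrd1, another such readout, measured 9.93, 12.2 and 9.57 CPM with BSA and 2.97, 2.68 and 3.66 CPM with [SO3] (log2 -1.77, SE 0.14, adjusted p = 4.07e-11). Of 20 tested contractile and cytoskeletal genes 9 fell and 0 rose (median -0.08), and 15 were lower than with [O]. Myh10, a non-muscle myosin heavy chain, fell (log2 -0.84). Of 11 tested integrins 8 fell and 1 rose (median -0.31). The riser was Itga5, of the fibronectin receptor (log2 0.32), and Itgb8, which with its partner activates TGF-beta, fell from 17.3, 15.8 and 15.6 CPM with BSA to 7.11, 5.36 and 7.49 CPM with [SO3] (log2 -1.29, SE 0.11, adjusted p = 1.91e-10). Pdgfrb, the receptor for the stellate cell mitogen PDGF, fell from 696, 659.5 and 643 CPM with BSA to 519, 502 and 546 CPM with [SO3] (log2 -0.35, SE 0.042, adjusted p = 7.47e-08). Of 15 quiescent stellate cell genes only 6 were tested, 2 rose and 3 fell (median 0.12), and the other 9 were below the filter on low counts.

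Of 24 tested genes of cholesterol synthesis, uptake and efflux 13 fell and 3 rose (median -0.15), and of 14 lipogenesis genes 9 fell and 1 rose (median -0.24). Mvk, mevalonate kinase, and Acaca, which makes the building block of fatty acids, fell (log2 -0.54 and -0.35), and the cholesterol exporter Abca1 rose (log2 0.27). Of 18 glycolysis genes 8 rose and 3 fell (median 0.07), among the risers Hk2, an inducible hexokinase (log2 0.91), and Slc2a1, the glucose transporter GLUT1 (log2 0.64). Of 14 tested circadian clock genes 9 rose and 3 fell (median 0.32). Nr1d1, the clock repressor REV-ERB alpha, rose by 1.15, and Dbp, a clock output factor, fell (log2 -1.11). Of 12 tested Notch genes 5 rose and 4 fell (median -0.09). The receptor gene Notch1 and the target Hes1 rose (log2 1.86 and 1.16), and the target Hey1 fell (log2 -1.42).

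Several large relative changes, by the same rule of no overlap and at least 5 CPM in the higher group, lay outside the lists. RGD1559493, Hapln3, a hyaluronan link protein, and Ampd3, an AMP deaminase, rose by 4.21, 3.39 and 2.96 from at most 1.25 CPM on average with BSA. Abcb1b, a multidrug exporter, measured 91.4, 80.8 and 86.9 CPM with BSA, 576, 612 and 604 CPM with [O] and 854, 867 and 949.9 CPM with [SO3] (log2 3.37, SE 0.049, adjusted p = 3.04e-25). Tsku, a secreted proteoglycan that modulates several ligands, measured 259, 251 and 231 CPM with BSA, 625, 585 and 598 CPM with [O] and 724, 714 and 721 CPM with [SO3]. Bdkrb1, the inducible bradykinin receptor, rose by 3.28 and was lower than with [O] (log2 -1.10). Among the genes that fell, Lbh, a cofactor linked to limb and heart development, measured 584, 651 and 578 CPM with BSA, 386, 293 and 337 CPM with [H], 89.8, 122 and 112 CPM with [O] and 139, 163 and 94.9 CPM with [SO3]. Gpr37, an orphan receptor, Apln, a peptide hormone, and Hoxa2, a patterning factor, fell (log2 -2.44, -2.07 and -1.91), and stood at 2.41 ± 0.190, 2.88 ± 0.551 and 7.58 ± 0.139 CPM with [O]. Lbh and these 3 genes were therefore low with both forms.

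Genes that span a long stretch of genome were lower with [SO3]. This pattern was described after the data were seen, without a test, using the spans of the mouse genes of the same symbol (RefSeq, GRCm38.p6), which 9359 of the 10140 tested genes (92.3%) had. In the longest decile (936 genes) the median log2 fold change was -0.28, and 55.7% of the genes fell and 16.9% rose. The other deciles had medians of -0.05 to 0.06. The shift grew with the span: 741 genes of 100 to 200 kb had a median of -0.13, 290 genes of 200 to 400 kb a median of -0.34, and 116 genes of at least 400 kb a median of -0.73. Of these last, 95 (81.9%) fell and 7 (6.03%) rose. The 3 [SO3] libraries each gave a low median for the genes of at least 400 kb, at -0.71, -0.69 and -0.62 against the BSA mean. The same genes had a median of 0.05 for [O] against BSA and of -0.68 for [SO3] against [O]. The values of single libraries and of [O] against BSA are log2 differences of CPM plus 0.5, and the others are fitted log2 fold changes.

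Named members of the long class included Prkg1, a cGMP-dependent kinase gene of 1201 kb, at 10.4, 9.80 and 12.7 CPM with BSA, 12.1, 11.5 and 11.5 CPM with [O] and 3.65, 2.85 and 3.72 CPM with [SO3] (log2 -1.68, SE 0.13, adjusted p = 5.33e-11). Nfia, a transcription factor gene of 541 kb, measured 31.5, 30.4 and 27.1 CPM with BSA, 24.1, 23.5 and 22.4 CPM with [O] and 8.84, 8.96 and 10.98 CPM with [SO3] (log2 -1.63, SE 0.086, adjusted p = 3.12e-14). An exception was Nrg1, the EGF family ligand of 1084 kb, at 2.04, 2.06 and 2.65 CPM with BSA and 9.08, 8.33 and 10.3 CPM with [SO3] (log2 2.05, SE 0.14, adjusted p = 6.05e-12). Long genes also sit in some of the lists: 8 of the 16 collagens were in the longest decile, and the collagens outside it had a median of -0.46. Of the 17 tested YAP targets 15 had a span, and 5 of these were in that decile. The median of those outside it was 0.03, but this leaves out Ctgf and Cyr61, which both fell and had no span. Of the mitosis genes 0 were in it. How far the span bears on the falls of single genes was not tested.

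**Figure D4:**
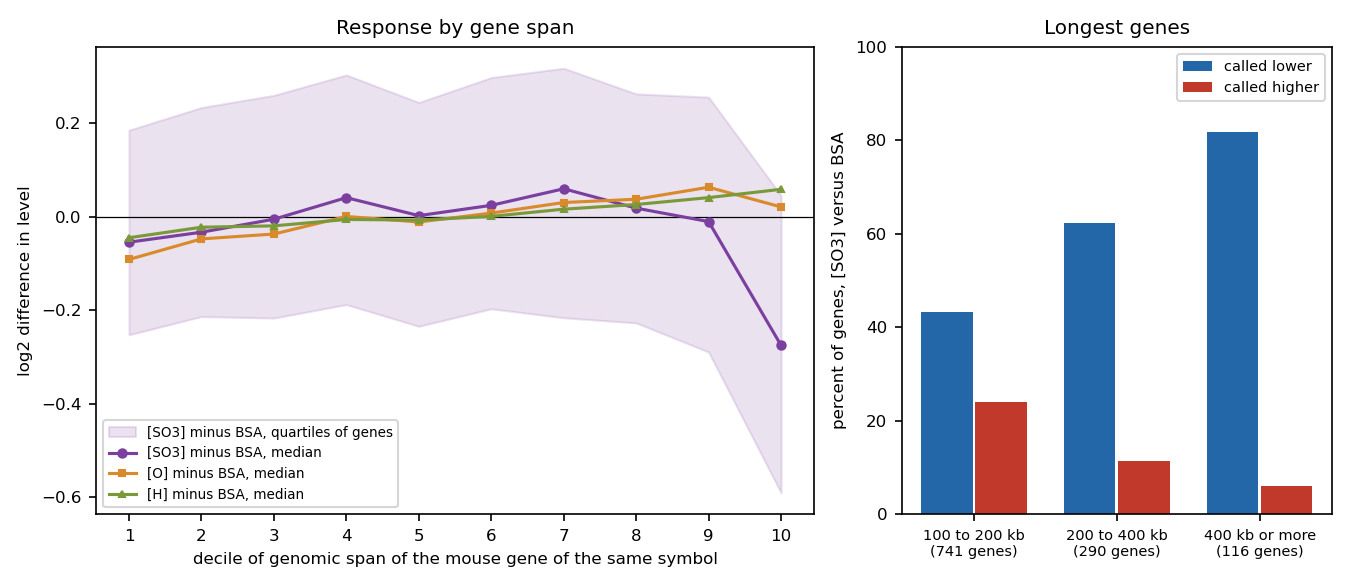
Left, median log2 difference from BSA (vertical axis) of tested genes in 10 equal groups by the span of the mouse gene of the same symbol (horizontal axis). The [SO3] values are fitted log2 fold changes, with their quartiles shaded. The [O] and [H] values are log2 differences of group mean CPM plus 0.5. Right, for [SO3], the percentage of genes of each span class called higher and lower. The [SO3] line drops to -0.28 in the longest group, where [O] is at 0.02 and [H] at 0.06.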

How the data were processed

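RNA was sequenced from HSC-T6 cells with TruSeq Stranded mRNA libraries, per the labels' protocols. The authors deposited whole-number read counts per gene, a unit read from the values. Per the submitters' processing notes the build was mm10, a mouse assembly, also for these rat cells. The gene names include RGD1559493, a rat gene symbol, so the genes were named from a rat annotation. The build used for these libraries is therefore uncertain. The aligner, counter, annotation version and strandedness, not given in the sources used here, are unknown. Overlapping, antisense and near-identical genes (Hspa1a and Hspa1b, for example) are therefore uncertain. The rat genome was not used here, and no rat gene positions are given. Rows without a gene (reads with no feature and ambiguous reads) were left out, and 0 columns lacked a sample. Reads with no feature were 24.2% to 26.0% of all counts, these rows included.

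The 12 cell libraries were fitted in 1 model with edgeR 4.0.16 in R 4.3.3 (TMM factors, robust quasi-likelihood, group as the only term). The filter was filterByExpr (min.count 10, min.total.count 15), and a call required p under 0.05 after Benjamini-Hochberg adjustment over the 10140 genes tested. Each adjusted p printed is from that test. Comparisons were [SO3] with BSA, with [O] and with [H], and those sharing libraries are not independent. Levels are CPM. The standard error (SE) beside a log2 fold change is the size of that change divided by the square root of the test's F value. It is an approximation, and for genes with few counts it can fall below the counting error. Genes with few counts are given by a ratio of summed counts with an exact binomial interval, which covers counting error only. Libraries within a group differed beyond sampling noise, so none was counted as a copy.

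The 40 gene lists and the 8 marker lists, like the comparison itself, were chosen with earlier results of these data known. Genes were named if they were list members, were among the 15 highest or lowest fold changes without overlap between the groups and with a mean of at least 5 CPM in the higher group, or were among the 10 largest gains or losses in CPM. The fit was tested on simulated counts. Promoters and gene spans came from RefSeq tables of mouse GRCm38.p6, matched by symbol. The alternatives were other size factors, filters, samples and depth, DESeq2 1.42.0, a replicate block and leaving out libraries. Results of some single list members are not reported here.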

Additional observations from a re-analysis of the deposited data

How the results depend on the processing

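All 6 counts of called genes stayed within 1.5 times their values in every alternative. Against BSA they ranged from 2948 to 3415 higher and from 2855 to 3247 lower, where leaving out 1 library gave 2948 to 3094 and 2944 to 3175. Against [O] they ranged from 2671 to 3997 higher and from 2342 to 3114 lower (2671 to 2928 and 2832 to 3089 without 1 library), and the extremes 3997 and 2342 came from library totals without composition scaling. Against [H] they ranged from 2983 to 3400 and from 2880 to 3347. Over all tested genes, the correlations of same-numbered [SO3] and BSA deviations were 0.078, 0.083 and 0.011. Those of differently numbered libraries ran from -0.17 to 0.089. With 3 libraries a group, these few correlations cannot decide whether libraries are paired by number. Single genes such as Tpi1 and Mx2 followed the number, and whether same-numbered libraries share a batch was not tested. A replicate block gave 3088 higher and 3180 lower against BSA, 2852 and 2998 against [O], and 3124 and 3159 against [H].

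Of the 165 genes named in the text and tested, the 144 called against BSA kept their call and direction in each alternative that tested them. 5 genes without a call gained one in some: Srf, Npm1 and Sod2 without BSA library 3 (Sod2 also without composition scaling), and Chac1 and Tlr4 without [SO3] library 2. Against [O], 18 of 142 called genes lost their call in some setting, among them Plk2. The medians of 8 lists near 0 changed sign in some setting: autophagy, prostaglandin and nitric oxide, interferon, HMGB1 and receptors, proteoglycans, TGF-beta and BMP, quiescent stellate cell, and Notch. The median of the genes of at least 400 kb ranged from -0.79 to -0.68. The alternatives without library 3 of both groups and those for the spans and for single genes against [O] were chosen after seeing the data. Genes at or near 3 counts in a group, such as Gdf15 and Cxcl2 with BSA, have folds that the depth fixes only within the intervals given.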

Other observations

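A few genes varied within groups far more than between them. Tpi1, the glycolytic enzyme triosephosphate isomerase, measured 2.65, 191 and 293 CPM in BSA libraries 1 to 3 and 2.35, 209.7 and 168 CPM in the [SO3] libraries, with the lowest value in library 1 of both groups. The interferon-stimulated genes Mx2, an antiviral GTPase, and Cxcl10, a T cell chemokine, were highest in library 3 of both groups. Mx2 measured 9.66, 13.6 and 52.3 CPM with BSA and 8.34, 8.16 and 19.3 CPM with [SO3]. Cxcl10 measured 10.1, 7.31 and 32.1 CPM with BSA and 11.9, 13.3 and 38.6 CPM with [SO3]. Neither these 3 genes nor Rsad2 passed the test between [SO3] and BSA.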
